A study of Mus musculus with 8 samples.

Results

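The genes followed here are interferon gamma (Ifng) and 9 genes of cytotoxic lymphocytes, Gzma, Gzmb, Prf1, Nkg7, Ncr1, Klrb1c, Klrk1, Eomes and Cd8a, in lungs from a mouse model of allergic airway inflammation. They were taken by name, through the RefSeq accessions of the array probes, in a list made with earlier results of these data known. All 10 had a probe well above background on all 8 arrays, among 28992 genes or unnamed transcripts tested. Lung RNA came from 8 female BALB/c mice, bought at 4 weeks of age, housed for 2 weeks and then fed for 70 days, with 2 mice in each of 4 groups. NT mice ate standard feed and received no ovalbumin (OVA), the allergen of the model. Ctrl-F mice ate the same feed and were sensitized by intraperitoneal injection of 1 µg OVA with 2 mg alum gel on Days 42, 49 and 56. They then inhaled a 2% OVA aerosol for 30 min a day from Day 63 to Day 69. Cap-F mice received the same OVA treatment on feed with control particles of carbonate apatite, which carry no oligodeoxynucleotide. ODNcap-F mice received it on feed with carbonate apatite particles that carry MsST, an oligodeoxynucleotide with CpG motifs, the DNA motif sensed by TLR9. All groups were sampled on Day 70, which was 24 h after the last OVA inhalation in the challenged mice, so NT differs from Ctrl-F in both the injections and the aerosol. The values are log2 intensities after quantile normalization, 1 array per mouse.

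Natural killer (NK) cells and CD8 T cells kill target cells by releasing granules, in which perforin (Prf1) opens the membrane and granzymes (Gzma and Gzmb among them) enter and cleave proteins. NK cells decide whether to kill through activating receptors such as NKp46 (Ncr1) and NKG2D (Klrk1) and through receptors of the Klr family, and Eomes is a transcription factor of both cell types. Interferon gamma is made by NK cells, CD8 T cells, type 1 helper T cells and innate lymphoid cells, and signals through its receptor and JAK kinases to genes such as those of the chemokines that attract T cells. It counters type 2 responses, the interleukin 4, 5 and 13 responses that allergic airway inflammation is known for.

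The tissue label was checked on genes of lung epithelium and endothelium. Sftpc, Sftpb, Scgb1a1, Ager, Cldn5 and Cdh5 were well above background on all 8 arrays. On a given array 61.3% to 65.0% of the probes exceeded background clearly, no spot was saturated, and the log2 values of the 2 mice of a group correlated across probes at 0.994 to 0.996. All arrays lay on 1 slide, NT and Ctrl-F in row 1 and Cap-F and ODNcap-F in row 2, so row and group cannot be told apart in comparisons across the rows. With 2 mice per group, an exact two-sided permutation test of 1 gene cannot give a p below 0.333. The tests are therefore from limma, fitted over all probes, and a gene counts as called where it differed more than 2-fold with a p, adjusted by Benjamini-Hochberg over all probes, under 0.05.

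The 4 genes with the lowest adjusted p against NT were Ifng, Gzma, Ncr1 and Klrb1c, and the 250 bases before their starts are shown because they passed the adjusted p in all 3 comparisons with NT. The bases run 5′ to 3′ along the gene, from RefSeq on GRCm38.p6, a build of another strain than BALB/c. They span chr10:118440796-118441045 on the plus strand for Ifng, chr7:4337465-4337714 on the plus strand for Ncr1, the more upstream of its 2 listed starts, chr6:128788642-128788891 on the minus strand for Klrb1c and chr13:113100982-113101231 on the minus strand for Gzma. Capitals mark matches on either strand to ACCACA (Runx) or to TTCNNNGAA (GAS, the gamma-activated site).
Ifng: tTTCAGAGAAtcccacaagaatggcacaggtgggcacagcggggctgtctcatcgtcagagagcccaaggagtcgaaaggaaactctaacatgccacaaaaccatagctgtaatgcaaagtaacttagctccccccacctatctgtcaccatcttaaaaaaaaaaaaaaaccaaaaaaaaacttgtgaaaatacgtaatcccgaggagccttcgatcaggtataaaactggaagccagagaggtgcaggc
Ncr1: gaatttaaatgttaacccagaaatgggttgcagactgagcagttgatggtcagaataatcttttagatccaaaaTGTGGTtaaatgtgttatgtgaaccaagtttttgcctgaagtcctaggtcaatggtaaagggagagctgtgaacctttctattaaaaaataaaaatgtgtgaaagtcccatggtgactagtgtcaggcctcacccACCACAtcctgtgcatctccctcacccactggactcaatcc
Klrb1c: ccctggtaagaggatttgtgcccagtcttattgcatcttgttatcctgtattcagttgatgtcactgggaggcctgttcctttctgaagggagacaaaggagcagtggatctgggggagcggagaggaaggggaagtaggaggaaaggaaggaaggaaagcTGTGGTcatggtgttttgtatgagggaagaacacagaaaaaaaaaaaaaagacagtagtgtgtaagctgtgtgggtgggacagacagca
Gzma: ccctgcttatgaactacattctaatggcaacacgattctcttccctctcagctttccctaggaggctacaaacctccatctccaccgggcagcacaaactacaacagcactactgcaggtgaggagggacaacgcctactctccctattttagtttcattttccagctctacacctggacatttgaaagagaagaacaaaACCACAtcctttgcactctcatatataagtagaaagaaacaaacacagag

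The motifs TCACACC (T-box) and TGANTCA (AP-1) had no match in these 4 windows, and matches of the 4 motifs did not overlap in any of the 10. The Runx letters stood in 7 of the 10 windows, those of Gzma, Gzmb, Prf1, Nkg7, Ncr1, Klrb1c and Klrk1, while 14.0% of all 32851 promoter windows of the same length held them. GAS letters stood in the windows of Ifng and Nkg7 (7.02% of all windows), T-box letters in that of Nkg7 (3.33%) and AP-1 letters in that of Gzmb (6.75%). The windows of Eomes and Cd8a held none of the 4. These are matches of letters only.

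Ifng was higher in all 6 challenged mice than in either NT mouse. The NT mice read 6.47 and 6.18, the Ctrl-F mice 7.37 and 7.32, the Cap-F mice 7.84 and 7.59, and the ODNcap-F mice 7.57 and 7.59. The challenged groups lay together about 1 log2 unit above NT, and no NT value overlapped with them. Among all genes tested, 69.5% were separated from NT in the same direction in all 3 challenged groups. This share stands beside each such separation below. Against NT the log2 difference of Ctrl-F was 1.02 (SE 0.13, adjusted p = 0.00096 in limma, n = 2 mice per group), that of Cap-F 1.39 (adjusted p = 0.00037) and that of ODNcap-F 1.26 (adjusted p = 0.00049). All 3 were called, and the one of Ctrl-F, at 2.03-fold, lay just over the threshold: it was 0.88 without NT mouse 2. Because whole lung was measured, more cells that make a transcript and more transcript per cell cannot be told apart, here and for each gene below.

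Ncr1, the gene of the NK cell receptor NKp46, went the other way. It read 8.03 and 7.94 (NT), 6.86 and 6.62 (Ctrl-F), 6.99 and 6.80 (Cap-F), and 7.09 and 6.71 (ODNcap-F). Every challenged mouse lay below both NT mice, a separation to be read beside the 69.5% of all genes above. From NT, the Ctrl-F mice differed by -1.24 (SE 0.16, adjusted p = 0.00097), the Cap-F mice by -1.09 (adjusted p = 0.0019) and the ODNcap-F mice by -1.08 (adjusted p = 0.0018). The last 2 passed 2-fold narrowly and were -0.99 without Cap-F mouse 2 and -0.89 without ODNcap-F mouse 2.

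Klrb1c encodes a C-type lectin receptor of NK cells, known as NK1.1 in strains whose product the NK1.1 antibody binds, which BALB/c is not among. It read 7.74 and 7.43 (NT), 6.50 and 6.36 (Ctrl-F), 6.73 and 6.60 (Cap-F), and 6.66 and 6.29 (ODNcap-F). No challenged mouse overlapped with NT. It fell by 1.16 in Ctrl-F (adjusted p = 0.0015) and by 1.11 in ODNcap-F (adjusted p = 0.0020), and by 0.92 in Cap-F, which passed the adjusted p (0.0044) but at 1.89-fold was not called. Single mice decided the calls of the later 2: the fall in ODNcap-F was under 2-fold when NT mouse 1 (-0.96) or ODNcap-F mouse 2 (-0.92) was left out, and without NT mouse 2 the one in Cap-F was -1.07 and called. A second probe of Klrb1c gave -1.12, -0.99 and -1.05 in the same order. The remaining probe was above background on none of the arrays.

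**Figure D1:**
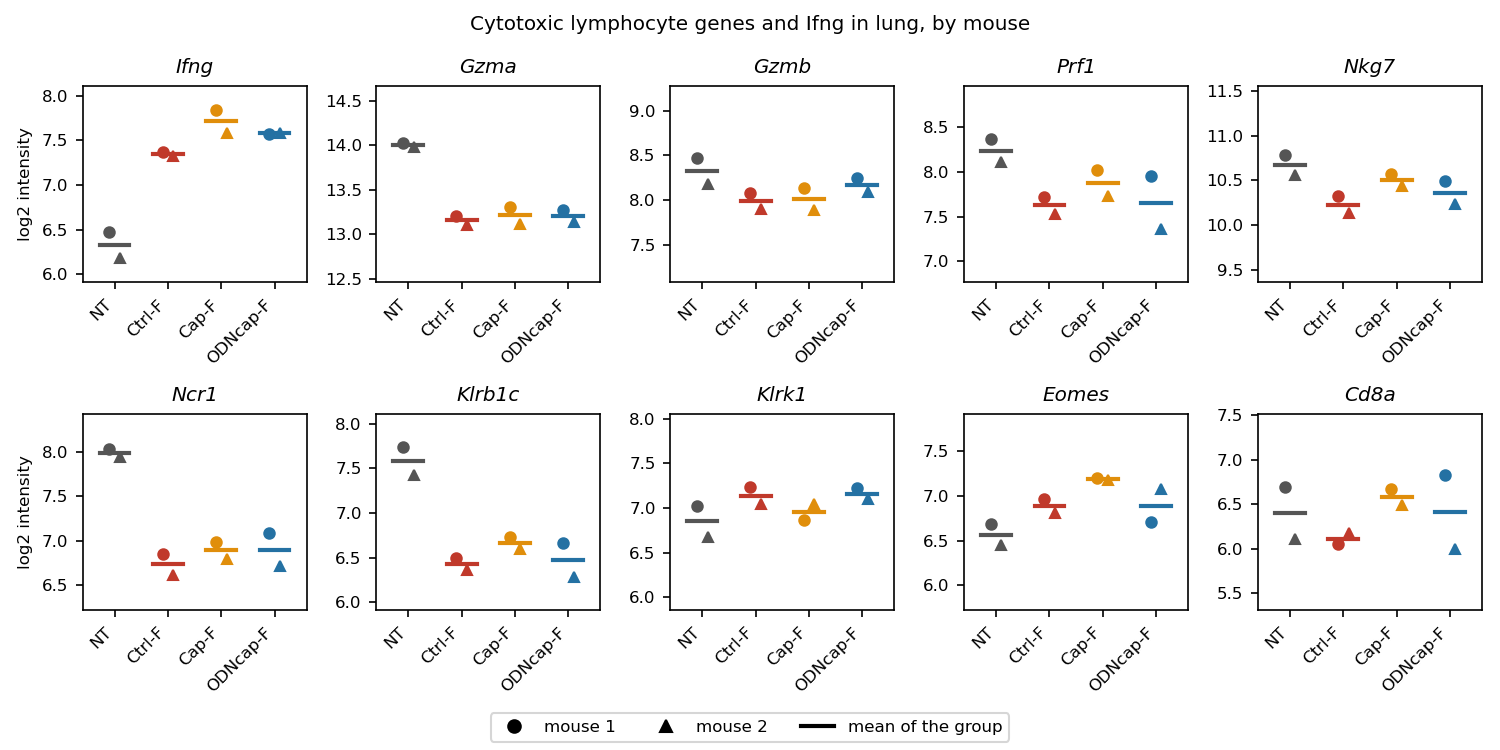
Log2 intensity (y axis, each panel spanning an equal range) of the 10 genes in each mouse (circle, mouse 1; triangle, mouse 2) of the 4 groups on the x axis, with a bar at the group mean. Ifng lies lowest in NT, at 6.18 and 6.47, while Ncr1, Klrb1c and Gzma lie highest there, and the 3 challenged groups lie close together.

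Of the granule genes, Gzma, the granzyme with tryptase activity, was the brightest of the 10 and also lower after OVA. It read 14.02 and 13.98 (NT), 13.21 and 13.11 (Ctrl-F), 13.31 and 13.11 (Cap-F), and 13.27 and 13.14 (ODNcap-F). The 6 challenged mice spanned 13.11 to 13.31 and the NT mice lay apart above them. Gzma fell by 0.84 (SE 0.10, adjusted p = 0.00071) with Ctrl-F, by 0.79 (adjusted p = 0.0011) with Cap-F and by 0.80 (adjusted p = 0.00096) with ODNcap-F. At 1.79-fold or less none of these was called, although the adjusted p passed in all 8 fits that left out 1 mouse.

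Gzmb, the granzyme that cleaves after aspartate and starts apoptosis, did not pass the adjusted p in any comparison with NT. It read 8.47 and 8.18 (NT), 8.08 and 7.90 (Ctrl-F), 8.14 and 7.88 (Cap-F), and 8.24 and 8.09 (ODNcap-F). The Ctrl-F and Cap-F mice lay below both NT mice, and the ODNcap-F and NT mice overlapped. The differences from NT were -0.34 (95% confidence interval -0.69 to 0.01), -0.32 and -0.16, with adjusted p of 0.085, 0.11 and 0.37. Whether its change differed from that of Gzma was not tested.

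Prf1, the gene of perforin, read 8.37 and 8.11 (NT), 7.73 and 7.53 (Ctrl-F), 8.03 and 7.73 (Cap-F), and 7.96 and 7.36 (ODNcap-F). All challenged mice lay below the NT mice, but the mice of a group lay up to 0.60 apart. The differences from NT were -0.61 (SE 0.22, adjusted p = 0.054), -0.36 (adjusted p = 0.21) and -0.58 (adjusted p = 0.065), and none passed. These values lay near the threshold and depended on the fit: under 19 alternatives Prf1 passed in 11 for Ctrl-F, 1 for Cap-F and 8 for ODNcap-F, in each case under 2-fold. The local-pooled-error test gave adjusted p of 0.0011 for Ctrl-F and 0.0058 for ODNcap-F.

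Nkg7 encodes a protein of the cytotoxic granule membrane. It read 10.79 and 10.56 (NT), 10.33 and 10.13 (Ctrl-F), 10.57 and 10.44 (Cap-F), and 10.49 and 10.24 (ODNcap-F). It fell by 0.44 in Ctrl-F (SE 0.13, adjusted p = 0.030), which at 1.36-fold was not called. The adjusted p did not pass when NT mouse 1 or Ctrl-F mouse 2 was left out, and the smallest of the 8 differences with 1 mouse left out was -0.33. In Cap-F (-0.17, adjusted p = 0.32) and ODNcap-F (-0.31, adjusted p = 0.093) it did not pass.

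None of the other 3 genes passed as lower than NT, and 1 of them, Eomes, passed as higher in Cap-F. Klrk1, the gene of the activating receptor NKG2D of NK and CD8 T cells, read 7.02 and 6.68 (NT), 7.24 and 7.05 (Ctrl-F), 6.87 and 7.05 (Cap-F), and 7.22 and 7.11 (ODNcap-F). Its differences from NT were 0.29, 0.11 and 0.31, and their intervals reached from -0.24 to 0.66. A fall by the 0.92 or more seen for Klrb1c lay outside these intervals.

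Eomes read 6.69 and 6.45 (NT), 6.97 and 6.81 (Ctrl-F), 7.20 and 7.19 (Cap-F), and 6.71 and 7.08 (ODNcap-F). It was above NT in all 6 challenged mice, closest in ODNcap-F mouse 1. It rose in Cap-F by 0.63 (SE 0.15, adjusted p = 0.013), which did not pass without NT mouse 2 or without Cap-F mouse 1, and the differences with Ctrl-F (0.32) and ODNcap-F (0.33) had adjusted p of 0.10 each.

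Cd8a, the gene of the CD8 alpha chain, varied most between mice. It read 6.69 and 6.12 (NT), 6.05 and 6.18 (Ctrl-F), 6.67 and 6.50 (Cap-F), and 6.83 and 6.0 (ODNcap-F). The 2 ODNcap-F mice lay 0.83 apart, more than the span of the group means. The differences from NT were -0.29, 0.18 and 0.01, with intervals of -1.03 to 0.46, -0.57 to 0.93 and -0.73 to 0.76, the widest of the 10 genes. A second probe gave -0.30, 0.26 and 0.14.

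**Figure D2:**
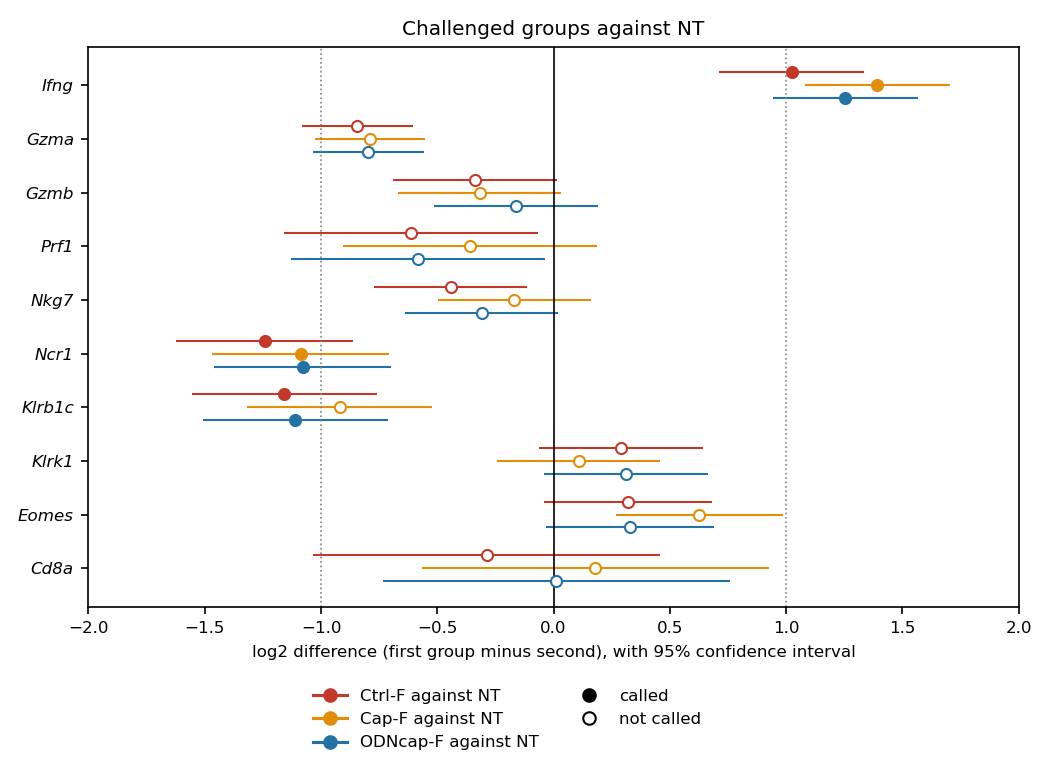
Log2 difference from NT (x axis) with its 95% confidence interval in limma for the 10 genes (y axis) in each challenged group (Ctrl-F red, Cap-F orange, ODNcap-F blue), where filled points were called and dotted lines mark 2-fold. Ifng lies to the right at 1.02 to 1.39, and Ncr1, Klrb1c and Gzma lie to the left at -0.79 to -1.24.

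Counted over the 10 genes, 3 were called in Ctrl-F against NT, 1 higher and 2 lower, where 22.8% of all genes tested were called (10.5% higher, 12.2% lower). In Cap-F 2 were called, 1 each way, against 19.6% of all (9.74% higher, 9.87% lower), and in ODNcap-F 3, again 1 higher and 2 lower, against 20.7% (9.86% higher, 10.8% lower). The shares of the 10 thus lay near those of all genes, and the counts alone do not set them apart. On the adjusted p alone 5, 5 and 4 passed, against 61.9%, 56.6% and 60% of all genes. The groups did not overlap for 9, 7 and 8 of the 10, where 84.0%, 82.1% and 82.3% of all genes had no overlap. The median log2 difference of the 10 was -0.39, -0.24 and -0.24, beside -0.12, -0.11 and -0.12 over all genes. Being called higher against NT in all 3 challenged groups, as Ifng was, held for 8.55% of all genes, and being called lower in all 3, as Ncr1 was, for 7.67%.

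The order of the group means was the same in 4 genes, Gzma, Prf1, Nkg7 and Klrb1c: NT, then Cap-F, then ODNcap-F, then Ctrl-F. Gzmb and Ncr1 also had NT highest and Ctrl-F lowest, with Cap-F and ODNcap-F changing places. Ifng and Eomes ran from Cap-F through ODNcap-F and Ctrl-F down to NT. No difference between challenged groups next to each other in these orders passed the adjusted p. Both ODNcap-F mice lay between the Ctrl-F and the Cap-F mice for Ifng, and below both Cap-F mice for Eomes. For Ifng, ODNcap-F mouse 2 (7.585) and Cap-F mouse 2 (7.587) were almost equal. Of all genes, 35.6% had no overlap between ODNcap-F and Ctrl-F, and 45.7% had none between ODNcap-F and Cap-F.

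The question of the feeding arms is whether particles, with or without MsST, moved these genes in challenged mice. No difference passed the adjusted p. Between ODNcap-F and Ctrl-F none of the 10 was called (0% of all genes were), none passed an unadjusted p of 0.05 in limma (6.78% of all genes did), the smallest adjusted p was 0.77, and the local-pooled-error test passed none. The differences of the 10 lay between 0.01 (Eomes) and 0.30 (Cd8a). All 10 differences were positive, with a median of 0.09 beside -0.01 over all genes. The shared Ctrl-F mice enter each of them. Leaving out 1 mouse could turn the sign for Gzma, Prf1, Ncr1, Klrb1c, Klrk1, Eomes and Cd8a. The groups did not overlap for 2 of the 10, Ifng and Gzmb, where 35.6% of all genes had no overlap.

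For Ifng the difference between ODNcap-F and Ctrl-F was 0.23, with a 95% confidence interval from -0.08 to 0.54. A fall of Ifng by 2-fold lay outside this interval, which rests on 2 mice per group. By quantitative PCR with more mice per group, the study reported another pattern. There lung Ifng was raised in Ctrl-F and Cap-F and close to the baseline in ODNcap-F. Why the PCR and the arrays differ was not tested. For Ncr1 it was 0.16 (-0.22 to 0.54), for Klrb1c 0.05 (-0.35 to 0.45) and for Gzma 0.05 (-0.19 to 0.28), so that the return of any of these 3 to the NT level, which would take 0.84 or more, lay outside the intervals too. For Prf1 (0.03, from -0.51 to 0.58) and Cd8a (0.30, from -0.45 to 1.04) the intervals were wider.

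Between Cap-F and Ctrl-F none of the 10 was called, as against 0.00345% of all genes, and the smallest adjusted p was 0.25, that of Ifng. Ifng was higher by 0.37 (95% confidence interval 0.06 to 0.68), at an unadjusted p of 0.028 in limma, the only 1 of the 10 with an unadjusted p under 0.05, where 16.6% of all genes had one. The local-pooled-error test passed none. Here 9 of the 10 differences were positive, all but that of Klrk1 (-0.18), with a median of 0.25 beside 0.00 over all genes. Leaving out 1 mouse could turn the sign for Gzma and Gzmb. Cd8a differed by 0.47 (-0.28 to 1.21), and its second probe by 0.56 (unadjusted p = 0.045, adjusted p = 0.30 in limma). The groups did not overlap for 6 of the 10, where 51.7% of all genes had no overlap.

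Between ODNcap-F and Cap-F, whose feeds differ by MsST, none of the 10 was called (0.00345% of all genes were). None passed an unadjusted p of 0.05 in limma (13.4% of all genes did), none passed in the local-pooled-error test, and the smallest adjusted p in limma was 0.45. The differences ran from -0.30 (Eomes, interval -0.66 to 0.06) to 0.20 (Klrk1, -0.15 to 0.56), with a median of -0.14 beside -0.01 over all genes. Here 7 of the 10 were negative. Leaving out 1 mouse could turn the sign for Gzma, Prf1, Ncr1 and Cd8a. The groups did not overlap for 3 of the 10, where 45.7% of all genes had no overlap. Ifng differed by -0.14 (-0.45 to 0.18), Ncr1 by 0.01 (-0.37 to 0.39) and Gzma by -0.01 (-0.25 to 0.23).

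**Figure D3:**
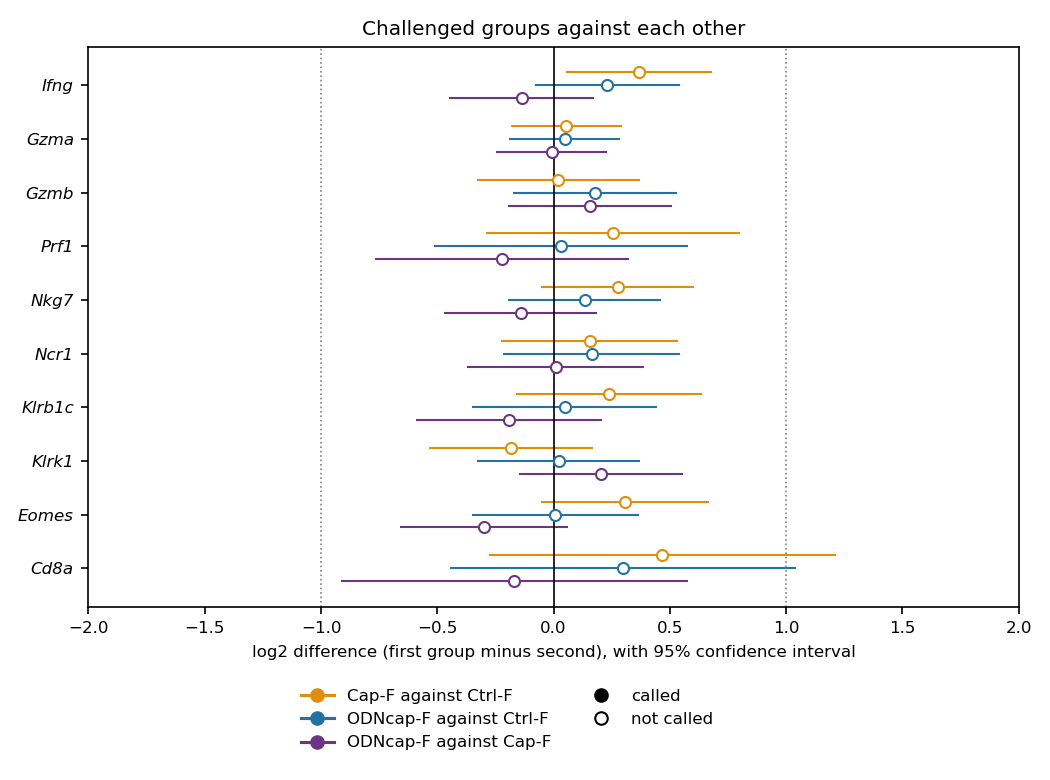
Log2 difference between the challenged groups (x axis, same scale as for the comparison with NT) with its 95% confidence interval in limma for the 10 genes (y axis). No point is filled, since none was called, and the widest intervals, of Cd8a, reach from -0.91 to 1.21.

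The 10 genes also varied between the mice of a group in a common direction. The mouse numbered 1 lay above the mouse numbered 2 in 36 of the 40 pairs of a gene and a group, by a median of 0.20. In all 4 groups this held for Gzma, Gzmb, Prf1, Nkg7, Ncr1 and Klrb1c. Over all genes mouse 1 was higher in 49.3% to 53.6% of genes in single groups, and in all 4 groups for 8.86%. Mouse 1 of each group lay in an odd column of the slide and mouse 2 in an even column, so mouse and column cannot be told apart. The gap between mice was widest for Cd8a in ODNcap-F (0.83) and for Prf1 in ODNcap-F (0.60). The 4 exceptions were Ifng and Eomes in ODNcap-F, Klrk1 in Cap-F and Cd8a in Ctrl-F.

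Differences from NT are given below in the order Ctrl-F, Cap-F, ODNcap-F. Around these genes, the other granule and death ligand genes went both ways. Of 19 listed, 14 could be tested, 12 of them well above background on all arrays. In each comparison with NT 3 were called higher and 1 lower, with a median log2 difference of 0.31 in Ctrl-F. Of all genes 10.5%, 9.74% and 9.86% were called higher and 12.2%, 9.87% and 10.8% lower. With normexp background correction 1 was called higher and 0 lower in each. Gzmm, a granzyme typical of NK and innate-like T cells, read 8.53 in both NT mice and 7.12 to 7.51 in the challenged mice, and fell by 1.28, 1.16 and 1.13 (adjusted p = 0.00037, 0.00064 and 0.00065). Gzmc and Gzmk were not well above background in NT and passed the filter on dim probes only through challenged mice. Their rise is therefore no test of direction. They were at least 4.5-fold and at least 1.5-fold higher in Ctrl-F, and at least 2.7-fold and at least 3.0-fold higher in Cap-F. Srgn, the core protein of serglycin that holds granule contents in many blood cells, rose by 1.30, 1.24 and 1.14. Tnfsf10, the death ligand TRAIL, fell by 0.85, 0.43 and 0.72, each under 2-fold, while Fasl, the ligand of Fas, differed by 0.19, 0.09 and 0.27 with adjusted p of 0.28 or more. Gzmd, Gzme, Gzmf, Gzmg and Gzmn did not pass the filter on dim probes. Granzyme genes c to g and n are close copies, and the signal of a probe for 1 of them may include another.

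Receptor and adaptor genes of NK and CD8 T cells went both ways. Of 20 tested among 24 listed, 7 were called higher and 3 lower in Ctrl-F, 6 and 1 in Cap-F, and 4 and 2 in ODNcap-F. Of all genes 10.5%, 9.74% and 9.86% were called higher and 12.2%, 9.87% and 10.8% lower. The counts called lower thus lay near the shares of all genes. Well above background on all arrays were 17 of the 20. Cd226, the activating receptor DNAM-1, fell by 1.36 with Ctrl-F and by 1.27 with ODNcap-F (both called) and by 0.90 with Cap-F (adjusted p = 0.0027, not called), and Klrd1, the gene of the CD94 chain of NKG2 receptors, fell by 0.76, 0.55 and 0.70 on the adjusted p alone. Klre1 fell by 1.07 in Ctrl-F. Klrb1b was above background in NT only and was at least 1.9-fold, 1.8-fold and 1.7-fold lower in the 3 challenged groups. It passed the filter on dim probes through NT alone, so its fall is no test of direction. Another gene of the family, Klrb1a, was higher by 1.83, 1.41 and 1.33. The Klrb1 genes are alike and differ between strains, and how far their probes hold for BALB/c was not tested.

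The receptor genes that were higher included several that other leukocytes also use. Slamf7, a receptor of NK cells, activated lymphocytes and plasma cells, read 6.01 and 5.60 in NT and 8.94 to 9.05 in the challenged mice, a rise of 3.15, 3.19 and 3.23 (adjusted p of 2.5e-05 to 2.7e-05). Tigit, an inhibitory receptor of T and NK cells, was not well above background in NT and was at least 7.1-fold higher in Ctrl-F. It passed the filter on dim probes through challenged mice alone. Fcgr3, an IgG receptor of NK and myeloid cells, rose by 2.32, 2.12 and 2.13, and the adaptor Tyrobp by 1.19, 1.08 and 0.98, the last under 2-fold. Cd8b1, the partner chain of Cd8a, fell by 0.66 in Ctrl-F (adjusted p = 0.032) and differed by -0.40 and -0.38 in Cap-F and ODNcap-F (adjusted p = 0.15 and 0.16). Without NT mouse 1, NK and CD8 T cell receptor genes called lower in Ctrl-F numbered 1, and without Cap-F mouse 1 those in Cap-F numbered 2. In ODNcap-F 1 was called lower without NT mouse 1, NT mouse 2 or ODNcap-F mouse 2, and 7 were called higher without the last.

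Of 9 listed ligands of NKG2D, which stressed cells show to NK cells, 4 had a probe and 3 were tested. Where 10.5%, 9.74% and 9.86% of all genes were called higher, these 3 were called higher in each challenged group. With normexp background correction, in the deposited table or with only probes above background on all arrays, 1 of them was called in each. H60b read 8.67 and 8.47 in NT and 10.42 to 10.82 in the challenged mice, a rise of 2.12, 2.09 and 1.92 (adjusted p of 9.6e-05 to 0.00015). Raet1e and Ulbp1 were not well above background in NT and were at least 3.5-fold higher each in Ctrl-F. Both passed the filter on dim probes through challenged mice alone, so their rise is no test of direction. Raet1 and H60 genes form families of like sequence that differ between strains, and how far these probes hold for BALB/c was not tested. The gene of their receptor, Klrk1, did not pass in any of these comparisons, as above.

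Genes that induce interferon gamma gave 2 higher and 1 lower call of 17 tested in Ctrl-F, and 2 and 2 in both Cap-F and ODNcap-F. These counts lay near the shares of all genes, 10.5%, 9.74% and 9.86% higher and 12.2%, 9.87% and 10.8% lower. Il18, the cytokine that prompts NK and T cells to make interferon gamma, read 10.89 and 10.92 in NT and 8.38 to 8.94 in the challenged mice, and fell by 2.24, 2.32 and 2.10 (adjusted p of 0.00018 to 0.00026). Il18r1, a chain of its receptor, fell by 0.81, 1.23 and 0.77. The transcription factor gene Runx3 rose by 1.72, 1.67 and 1.50, and the receptor gene Il21r by 2.14, 2.29 and 2.09. Tbx21, the gene of T-bet, which drives Ifng in type 1 lymphocytes, differed by -0.24, -0.20 and -0.26 (adjusted p of 0.097 to 0.19), and Il12a and Il12b did not reach 2-fold in any comparison with NT. Il12rb2 was called lower in ODNcap-F at levels near background, a call that leaving out any of 5 single mice removed.

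Of 20 tested genes of the interferon gamma receptor, its signalling and its response, 9, 9 and 8 were called higher and none lower, where 10.5%, 9.74% and 9.86% of all genes were called higher. The medians were 0.78, 0.91 and 0.77. Cxcl9, a chemokine gene known to be induced by interferon gamma, read 3.29 and 4.05 in NT and 9.01 to 9.58 in the challenged mice. It was well above background in 1 of the 2 NT mice and in all challenged mice, so the fitted differences of 5.71, 5.56 and 5.68 (adjusted p of 5.0e-05 to 6.4e-05) rest on an NT mean that is only partly measured. Cxcl10 rose by 2.60, 2.99 and 2.94, Socs1, a feedback inhibitor of JAK kinases, by 2.56, 2.55 and 2.48, and the receptor chain gene Ifngr2 by 1.19, 1.21 and 1.17. Members of the same list that were lower, under 2-fold, were Ifngr1 (-0.54, -0.48 and -0.52, adjusted p of 0.0012 to 0.0023) and the transcription factor gene Irf1 (-0.48, -0.32 and -0.44, adjusted p of 0.0020 to 0.011).

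**Figure D4:**
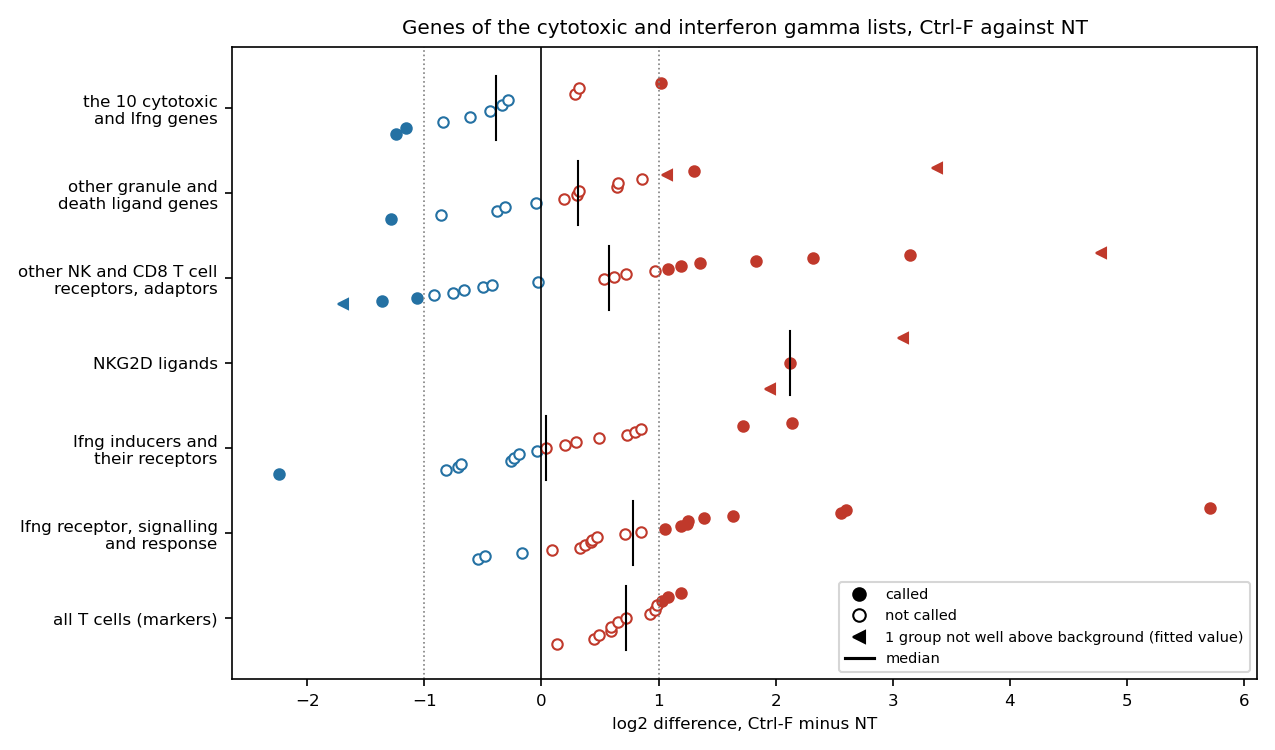
Log2 difference between Ctrl-F and NT (x axis) of each gene tested in 7 lists (y axis), where filled marks were called, triangles had 1 group not well above background, black ticks are medians and dotted lines mark 2-fold. The 10 genes lie mostly left of 0 with Ifng apart on the right, Cxcl9, well above background in 1 of the 2 NT mice, has a fitted difference of 5.71, and the inducer Il18 lies at -2.24.

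Markers of other cells moved with these changes. Of all genes, 26.2%, 24.1% and 25.1% passed the adjusted p as higher, and 10.5%, 9.74% and 9.86% were called higher. The 13 markers of all T cells passed the adjusted p as higher in 11, 12 and 11 cases. None passed as lower, and 3, 6 and 2 also exceeded 2-fold. Without NT mouse 2 the last counts were 1, 1 and 0, and over all mice left out in turn they lay between 1 and 6, 1 and 8, and 0 and 4. Their mean log2 level was 9.90 to 10.24 in NT, 10.77 to 10.87 in Ctrl-F, 10.87 to 10.95 in Cap-F and 10.60 to 10.88 in ODNcap-F, so T cell genes in common rose in the same lungs in which Gzma, Ncr1 and Klrb1c fell. All 5 B cell markers were called higher in each comparison with NT. So were 5 of 7 type 2 lymphocyte markers, among them Il4 by 3.90, 3.77 and 3.86. Of 6 regulatory T cell markers 4, 5 and 5 were called higher. With normexp background correction 3, 2 and 2 type 2 markers and 3, 2 and 3 regulatory ones were called higher. Of the 5 tested eosinophil markers 4, 5 and 4 were called higher. Well above background on all arrays were 5 of the 7 type 2 markers, 5 of the 6 regulatory ones and 4 of the 5 eosinophil ones. The others may have passed the filter on dim probes through challenged mice alone, and a rise is then no test of direction. The endothelial genes Cldn5 and Cdh5 were called lower in each, by 1.27 and 1.20 in Ctrl-F. The part of these shifts in the values of the 10 genes was not tested.

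Among the challenged groups, none of the 74 genes of the granule, receptor, ligand, inducer and response lists passed the adjusted p. At an unadjusted p under 0.05 in limma there were 12 between Cap-F and Ctrl-F, 8 between ODNcap-F and Ctrl-F and 6 between ODNcap-F and Cap-F, where 16.6%, 6.78% and 13.4% of all genes passed that limit. The smallest adjusted p were 0.16, 0.71 and 0.21.

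The genes whose levels over the 8 arrays were most like those of Ifng were Cxcl1, a neutrophil-attracting chemokine gene (Pearson r = 0.990), Iqgap1 (0.989), Riox2 (0.989), B4galt1 (0.988) and Treml2 (0.988), of 15171 named genes well above background on all arrays. Cxcl1 read 8.09 and 7.57 in NT and 9.97 to 10.53 in the challenged mice. For Ncr1, added after its values were seen, they were Igfbp3 (0.993), D030018L15Rik (0.993), Aff3 (0.993), Map7d3 (0.992) and Arhgap22 (0.992). Igfbp3, which encodes a binding protein of insulin-like growth factors, read 13.32 and 13.24 in NT and 10.91 to 11.43 in the challenged mice. For the mean of Ifng, Ncr1 and Klrb1c, which moved in opposite directions, they were Gm16325 (0.986), Dnttip1 (0.974), Zbtb37 (0.966), Ccl5 (0.958) and Marchf3 (0.957). The arrays share 1 slide and fall into NT and challenged mice, so the values for Ifng and for Ncr1 mostly describe the step between them. For the mean of Ifng, Ncr1 and Klrb1c that step is less clear. Zbtb37 read 7.34 in NT mouse 2 and 7.36 in Cap-F mouse 1, and Dnttip1 read 11.55 and 11.54 there. Gm16325, Ccl5 and Marchf3 did not overlap between NT and challenged mice. Ccl5, a chemokine gene of cytotoxic lymphocytes, read 13.54 and 13.38 in NT and 12.74 to 13.17 in the challenged mice.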

How the data were processed

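Lung RNA of 8 mice was hybridized to 8 single-color arrays on 1 slide. The authors deposited the background-subtracted intensity of each spot from Agilent Feature Extraction 11.0 (version as in the submitters' notes) and a log2 table of 32312 probes, log-transformed and quantile normalized over the arrays. Intensities quantile normalized again over only those 32312 probes differed from that log2 table by at most 0.12. Here 59305 spots per array without controls were used, 792 flagged spot values were set to missing, and the log2 intensities were averaged to 56605 probes and quantile normalized. A probe was kept if the scanner flags put it well above background in both mice of any group (37116, of which 24290, or 65.4%, were named through RefSeq accessions). The brightest probe stood for a gene.

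The 8 arrays were fitted together with limma 3.58.1 in R 4.3.3, with 4 groups and no covariate, with 4 residual degrees of freedom and 1.96 from the prior. Confidence intervals are at the 95% level. The local-pooled-error test named in the study's methods, which takes the spread from probes of like intensity, was rebuilt as an alternative. Both were tested on simulated data. Bounds written "at least" set the brighter group against the lowest signal well above background on each array of the dimmer group. Where the gene's own value on such an array was higher than that signal, its own value was used. The number of arrays limits the precision.

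The genes, the lists and the motifs were chosen with earlier results of these data known. All 10 genes are reported in every comparison, and some list members are not reported here. Of each list up to 4 called genes with the smallest p in the comparison with most calls are named, with those its role turns on, and for likeness the 5 named genes with the highest r. Other names, such as Tnfsf10, Fasl, Klre1, Ccl5 and the endothelial genes, were chosen after their values were seen. Alternatives were another scaling, normexp background correction with an offset of 50, the deposited table, 2 other filters, a replicate block, an intensity trend, fits of 2 groups, each array left out, the local-pooled-error test, mean probes and an unadjusted p. Figures were drawn with matplotlib 3.10.9.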

Additional observations from a re-analysis of the deposited data

How the results depend on the processing

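Of 1140 values of the 10 genes under 19 alternatives, 1094 kept their direction and side of the threshold, 14 lost and 1 gained a call, and 31 changed sign, each of a difference that was not called. Normexp background correction, which raises dim signals by its offset and so compresses their differences, left none of the 10 called against NT, with 0 in each comparison. In the order Ctrl-F, Cap-F, ODNcap-F, Ifng was then 0.67, 0.99 and 0.85 higher, Ncr1 was -0.90, -0.78 and -0.77, and Klrb1c was -0.79 in Ctrl-F and -0.68 in ODNcap-F, each still with an adjusted p under 0.05. With 75th percentile scaling Ifng was 0.95 in Ctrl-F. Leaving out 1 mouse gave 2 to 3 calls in Ctrl-F, 1 to 3 in Cap-F, lowest without Cap-F mouse 2, and 1 to 3 in ODNcap-F, lowest without ODNcap-F mouse 2. At an unadjusted p, 1 gene passed between Cap-F and Ctrl-F, under 2-fold. The median over all genes against NT was -0.11 to -0.12 with quantile normalization, -0.12 to -0.13 with 75th percentile scaling and -0.07 to -0.08 with normexp.

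Over all probes the deviations of same-numbered mice correlated at -0.01 to 0.16 over 6 pairs of groups, so the numbers were not taken to pair the mice, although mouse 1 lay above mouse 2 in 36 of 40 gene and group pairs of the 10 genes. With the replicate number as a block, 3, 2 and 3 of the 10 were called against NT, as without it, and 7, 7 and 6 passed the adjusted p in place of 5, 5 and 4.

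Of the differences that changed sign, with 75th percentile scaling Cd8a was -0.051 in ODNcap-F against NT, Gzma was -0.046 in Cap-F against Ctrl-F, Gzma was 0.068 in ODNcap-F against Cap-F, and Ncr1 -0.0063 in the last. With normexp, Eomes was -0.042 and Gzma -0.0015 in ODNcap-F against Ctrl-F. Leaving out 1 mouse, Cd8a ranged from -0.11 to 0.47 in Cap-F against NT, -0.40 to 0.43 in ODNcap-F against NT, -0.11 to 0.71 in ODNcap-F against Ctrl-F and -0.58 to 0.25 in ODNcap-F against Cap-F. Klrk1 ranged from -0.065 to 0.28 in Cap-F against NT. In Cap-F against Ctrl-F, Gzma ranged from -0.044 to 0.15 and Gzmb from -0.11 to 0.15. In ODNcap-F against Ctrl-F the ranges were -0.17 to 0.19 for Eomes, -0.023 to 0.12 for Gzma, -0.14 to 0.24 for Klrb1c, -0.074 to 0.12 for Klrk1, -0.026 to 0.35 for Ncr1 and -0.27 to 0.33 for Prf1. In ODNcap-F against Cap-F they were -0.11 to 0.091 for Gzma, -0.18 to 0.20 for Ncr1 and -0.52 to 0.077 for Prf1. The cause was not tested. Of 1254 counts of genes called in the lists, 1177 stayed within 1.5 times the reported count. With normexp, no granule or receptor gene was called lower against NT.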
